A study of Mus musculus with 4 samples.

Results

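The genes described here are the subunits of the transcription factor NF-kB, the inhibitors and the deubiquitinating enzyme that feed back on it, and 1 secreted product of the pathway. They were chosen by name with earlier results of these data known. The list held 10 symbols (Nfkb1, Nfkb2, Rela, Relb, Rel, Nfkbia, Nfkbie, Nfkbiz, Tnfaip3 and Ptx3). Of these, 9 were measured among 19938 genes, each by 1 probe set, and Nfkb1 was not analysed here. The levels came from cultured cells of C57BL/6 mice, with 1 array for each of 4 groups. Mesenchymal stem cells (MSC), the plastic-adherent stromal cells of the marrow flushed from thigh and shin bones, were grown with 1 ng/ml of basic fibroblast growth factor (bFGF, also called FGF2) or without it, in otherwise the same serum-containing medium. The controls were osteoblasts released by enzymes from the skull bones of newborn mice, pooled from the final digestions and grown in serum-containing medium, and embryonic stem cells, whose culture the labels do not describe. The design text names the effect of bFGF on marrow MSC as the question.

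NF-kB is a family of dimers built from Rel proteins, which share the domain that binds DNA. In resting cells inhibitors of the IkB family hold most dimers in the cytoplasm. Signals from receptors such as those for tumour necrosis factor, interleukin 1 and bacterial products activate kinases that mark IkB for destruction, and the freed dimers enter the nucleus. Among the genes they then switch on are those of their own inhibitors and several of their own subunits, so that messenger RNA of these genes is commonly used as a sign of pathway activity. Macrophages are rich in this response, and stromal cells and osteoblasts also show it when exposed to inflammatory cytokines.

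The deposited values were levels on a log2 scale, so a difference of 1 is 2-fold. A gene was counted in a pair of arrays if the higher of its 2 levels exceeded the median level of all singly named probe sets on that array. This floor lay at 6.32 in MSC with bFGF, 6.29 in MSC without bFGF, 6.46 in osteoblasts and 6.46 in embryonic stem cells. A gene was called higher or lower at 2-fold. With 1 array per group there was no replicate check, so no test was made and the spread between cultures is unknown. All 9 members were counted in all 6 pairs of arrays, and levels are compared between arrays within a gene, not between genes.

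Embryonic stem cells carried 6 of 8 pluripotency markers above the floor, against 1, 0 and 0 in MSC with bFGF, MSC without bFGF and osteoblasts. Of the osteoblast markers listed, Bglap and Spp1 were not analysed here. The osteoblast array had 1 of 6 measured osteoblast markers above the floor, Col1a1, while Alpl, Sp7, Ibsp, Dmp1 and Phex lay under it. MSC with bFGF also had 1 of these 6 above the floor, and MSC without bFGF and embryonic stem cells had 2 each. Col1a1 lay above the floor on all 4 arrays, with its highest level, 12.6, in osteoblasts. Of 9 stromal markers 6 lay above the floor in MSC with bFGF, 4 in MSC without bFGF, 8 in osteoblasts and 7 in embryonic stem cells. Of 18 macrophage markers 17 lay above the floor in MSC with bFGF, 10 in MSC without bFGF, 18 in osteoblasts and 12 in embryonic stem cells. Their mean log2 level was 8.94, 6.68, 10.67 and 7.43 in the same order. No neutrophil marker of 9 and no lymphocyte marker of 7 lay above the floor on any of the 4 arrays. Because the floor is a median, a large share of all probe sets lies above it by construction. The counts above the floor are therefore not counts of markers shown to be expressed.

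Most of these genes hold letters that match the known NF-kB recognition sequence close to their start. Any link between these matches and the levels on the arrays was not tested. RefSeq promoter windows of GRCm38.p6, from 250 bases before to 50 bases after a gene's start, were found for 7 of the 10 listed genes (Nfkb2, Rela, Rel, Nfkbia, Nfkbie, Tnfaip3 and Ptx3). A full kB consensus, searched on both strands, was present in 6 of these 7 genes, Rela being the exception, against 5.14% of 27025 genes in the whole table. Among windows with a GC content within the members' range, 6.02% of genes held it, but their median GC content, 56.7%, was below that of the members. Because the members were chosen by name as NF-kB genes, these shares are a description and not a test. The looser kB motif GGGNNNNNCC, which every full match also satisfies, was in all 7 genes but also in 53.5% of all genes. The median GC content was 62.8% over the 10 windows of the members and 52.7% over 32851 windows in all. A match describes letters and is not a measured binding site. In the following stretches, given 5′ to 3′ in the gene's own direction, the capitals mark full kB matches, with overlapping matches merged.
Nfkb2: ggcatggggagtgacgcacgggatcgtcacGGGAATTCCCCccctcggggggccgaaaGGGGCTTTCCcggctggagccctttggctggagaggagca
Rel: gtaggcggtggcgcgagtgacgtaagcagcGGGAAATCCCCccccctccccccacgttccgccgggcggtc
Nfkbia: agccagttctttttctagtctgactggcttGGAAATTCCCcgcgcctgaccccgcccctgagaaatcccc
Nfkbie: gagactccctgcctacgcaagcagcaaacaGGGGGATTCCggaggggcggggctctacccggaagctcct
Tnfaip3: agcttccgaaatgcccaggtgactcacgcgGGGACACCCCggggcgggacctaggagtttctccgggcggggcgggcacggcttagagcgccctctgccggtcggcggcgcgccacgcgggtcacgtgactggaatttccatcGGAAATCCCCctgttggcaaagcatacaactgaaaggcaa
Ptx3: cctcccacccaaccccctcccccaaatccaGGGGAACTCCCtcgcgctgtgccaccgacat
The stretch of Nfkb2 lies at chr19:46304668-46304765 (plus strand), that of Rel at chr11:23771021-23771091 (minus strand) and that of Nfkbia at chr12:55492637-55492706 (minus strand). The stretch of Nfkbie lies at chr17:45555564-45555633 (plus strand), that of Tnfaip3 at chr10:19015383-19015565 (minus strand) and that of Ptx3 at chr3:66219856-66219916 (plus strand). Counted from the annotated start, with no position 0, the match of Nfkbia runs from -29 to -20 and that of Rel from -92 to -82. Nfkb2 has 3 annotated windows and Tnfaip3 has 2, and the stretch shown is from 1 window of each. In the windows shown, Nfkb2 and Tnfaip3 hold 2 separate matches each, at -39 to -29 and -11 to -2 in Nfkb2 and at -125 to -116 and -12 to -3 in Tnfaip3. The other windows, which are not shown, hold 2 and 1 matches for Nfkb2, where these windows overlap each other, and 0 for Tnfaip3. The match of Ptx3 spans the annotated start itself, from -1 to 10.

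In MSC with bFGF, all 9 measured members had higher levels than in MSC without bFGF, and Ptx3, Rel and Nfkbiz passed 2-fold. The 3 genes called higher compare with 4.09% of 10483 genes above the floor, and the 0 members called lower with 0.467% of genes. A difference above 0, which all 9 members had, was found in 49.4% of genes. Because the members were chosen with earlier results of these data known, these shares are a description and not a test. The median difference was 0.71 over the 9 members and -0.0037 over all genes above the floor. Between probe sets of the same gene, over 602 genes, this difference had an SD of 0.193. That SD measures disagreement of probe sets on the same pair of arrays, not variation between cultures, RNA preparations or arrays. The smallest member difference was 0.40, for Relb, and 19.6% of genes above the floor differed at least as much in either direction. In such bulk RNA, fewer cells of a type and less RNA per cell cannot be told apart.

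Among the 4 Rel subunits measured, Rel had the largest difference. Rel encodes c-Rel, a subunit that activates transcription and is best known from blood cells. Its level was 7.91 in MSC with bFGF and 6.36 in MSC without bFGF, which was just above the floor, with 8.51 in osteoblasts and 6.70 in embryonic stem cells. Rel was thus 2.92-fold higher with bFGF, a log2 difference of 1.54 that was exceeded by 2.38% of genes above the floor. Rela encodes p65, the subunit that carries the activation domain of the common p50-p65 dimer. Rela stood at 8.87 in MSC with bFGF and 8.30 in MSC without bFGF, with 8.52 in osteoblasts and 7.80 in embryonic stem cells. Its difference of 0.56 between the MSC arrays, like those of the subunits that follow, was short of 2-fold. This difference of Rela was exceeded by 7.78% of genes above the floor.

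Nfkb2 encodes p100, a precursor that acts as an inhibitor until it is cut to the p52 subunit of the alternative pathway. Nfkb2 stood at 9.08 in MSC with bFGF and 8.41 in MSC without bFGF, a difference of 0.67, with 8.66 in osteoblasts and 8.58 in embryonic stem cells. Relb encodes the partner of p52 in that pathway. Relb was at 7.71 in MSC with bFGF and 7.30 in MSC without bFGF, with 7.28 in osteoblasts and 7.32 in embryonic stem cells. Between the MSC arrays its difference was exceeded by 11.6% of genes above the floor, and that of Nfkb2 by 6.15%. Both genes were highest in MSC with bFGF, and Relb was nearly level on the other 3 arrays.

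The IkB genes and Tnfaip3 showed differences of unequal size. Nfkbiz encodes IkB zeta, a nuclear protein of the IkB family that is quickly induced and that switches on a second set of inflammatory genes. Nfkbiz stood at 8.60 in MSC with bFGF against 7.23 in MSC without bFGF, 2.59-fold higher, with 8.23 in osteoblasts and 7.67 in embryonic stem cells. MSC without bFGF had the lowest level of this gene on any of the 4 arrays. Nfkbia encodes IkB alpha, the classical inhibitor that is destroyed and then rebuilt in each round of signalling, and its promoter match is shown above. Nfkbia was at 9.70 in MSC with bFGF and 8.77 in MSC without bFGF, a difference of 0.93 that was just short of 2-fold, with 10.54 in osteoblasts and 8.80 in embryonic stem cells.

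Nfkbie, which encodes the related inhibitor IkB epsilon, had low levels. It stood at 6.88 in MSC with bFGF and 6.45 in MSC without bFGF, both close to the floor. Osteoblasts had 7.78 and embryonic stem cells 5.93, under the floor. The difference of Nfkbie between the MSC arrays, 0.43, was exceeded by 10.7% of genes above the floor. Tnfaip3 encodes A20, a ubiquitin-editing enzyme that shuts off signalling upstream of the IkB kinases. Tnfaip3 was at 8.06 in MSC with bFGF and 7.35 in MSC without bFGF, a difference of 0.71, with 8.18 in osteoblasts and 7.02 in embryonic stem cells. For both genes osteoblasts were highest and embryonic stem cells lowest.

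Ptx3 had the widest range of the 9 genes, 3.16 over the 4 arrays. It encodes a long pentraxin, a secreted protein of innate defence that is not itself part of the NF-kB machinery, that takes part in building hyaluronan-rich matrix and that is also known to bind FGF2. Its level was 9.57 in MSC with bFGF and 7.36 in MSC without bFGF, with 9.96 in osteoblasts and 6.80 in embryonic stem cells. Ptx3 was 4.62-fold higher with bFGF, a difference of 2.21 that was exceeded by 1.18% of genes above the floor. MSC with bFGF and osteoblasts thus had the high levels of this gene, and MSC without bFGF and embryonic stem cells the low ones.

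**Figure D1:**
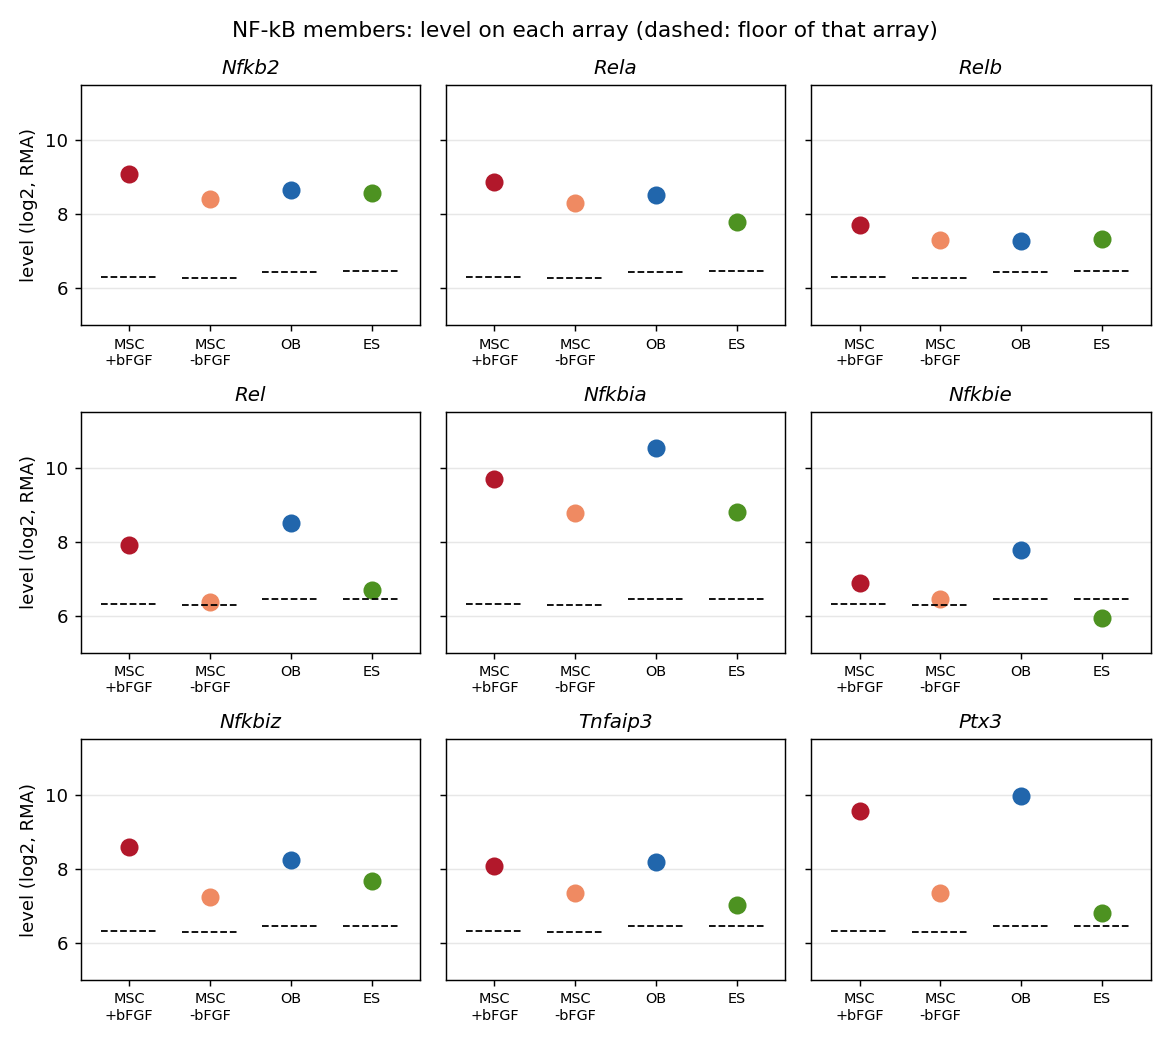
Log2 level of each of the 9 measured members (1 panel a gene) on the 4 arrays, MSC with bFGF, MSC without bFGF, osteoblasts (OB) and embryonic stem cells (ES); each point is 1 array and the dashed line is that array's floor. The point for MSC with bFGF lies above that for MSC without bFGF in all 9 panels, and Nfkbie in embryonic stem cells, at 5.93, is the 1 point under its floor.

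**Figure D2:**
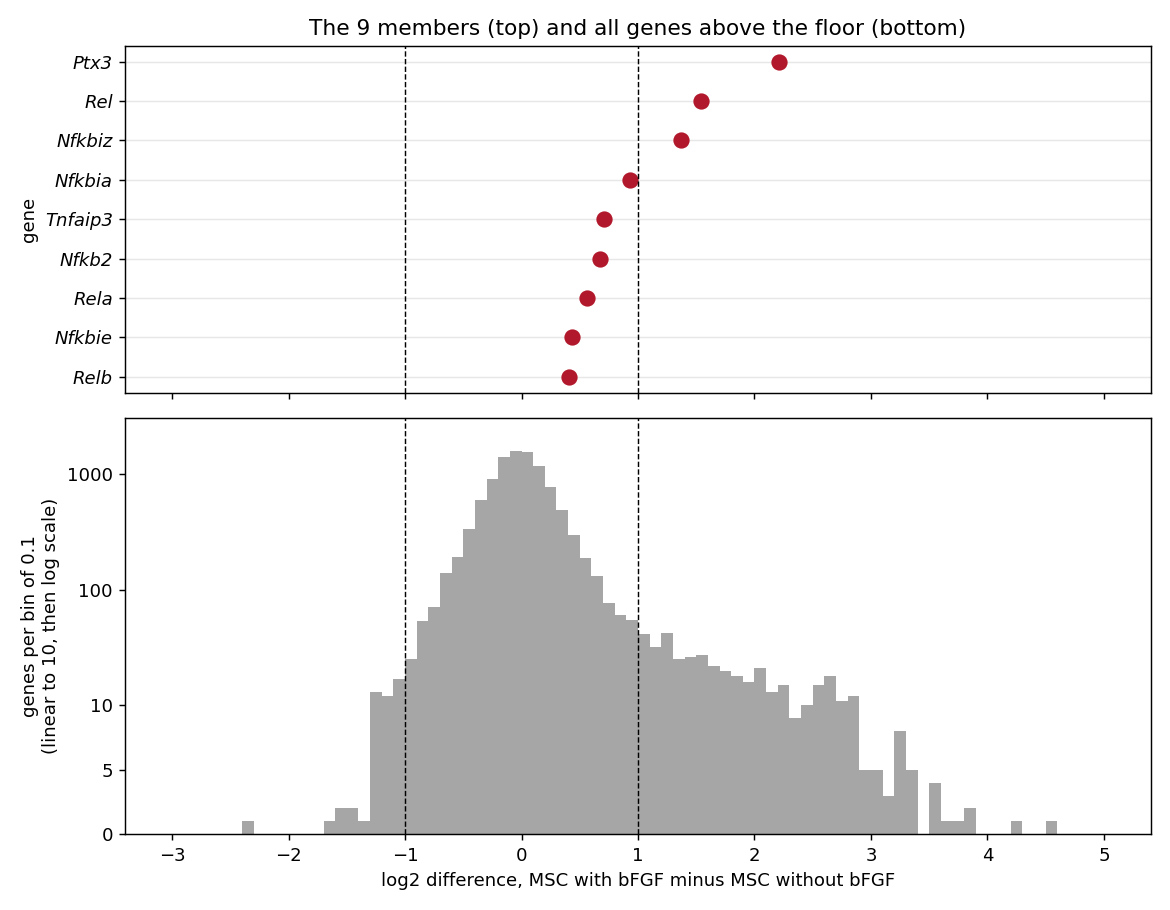
Log2 difference of MSC with bFGF minus MSC without bFGF for the 9 members (top, 1 point a gene) and for 10483 genes above the floor (bottom, genes per bin of 0.1, axis linear to 10 and logarithmic above); dashed lines mark 2-fold. The members lie between 0.40 and 2.21, and Nfkbiz, Rel and Ptx3 lie beyond the line on the right.

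The other genes of the pathway, taken from lists chosen by function with earlier results of these data known, did not all follow the members. The counts called in each list stand beside 4.09% of all genes above the floor called higher in this pair and 0.467% called lower. Of 7 measured genes of IkB kinase subunits and kinases upstream, 0 were called in either direction, with a median difference of 0.06. Chuk, also on this list, was not analysed here. Map3k8 (Tpl2), a kinase bound by the p105 product of Nfkb1, had 6.67 in MSC with bFGF against 5.95, under the floor, in MSC without bFGF. Map3k7 (TAK1) had 9.36 against 9.52. All 3 further IkB family genes were above 0, with a median of 0.44. Of these Nfkbid, the gene of the nuclear protein IkBNS, was called higher at 6.89 in MSC with bFGF against 5.71 in MSC without bFGF, a level under the floor.

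Of 15 measured adaptors and ubiquitin ligases 14 lay above the floor in this pair, and the median over all 15 was 0.14. Of the 14, 1 was called higher and 0 lower, beside 4.09% and 0.467% of all genes above the floor. The gene called was Irak2, a kinase-like adaptor of Toll-like and interleukin 1 receptors, at 7.18 in MSC with bFGF against 5.72 in MSC without bFGF. Of 12 negative regulators 1 was called higher and 0 lower, beside the same shares of all genes, with a median of 0.22. That gene was Tnip3, which encodes a binding partner of A20, at 7.26 in MSC with bFGF against 4.75 in MSC without bFGF. Zc3h12a, the gene of an RNase that degrades cytokine messages, differed by 0.93, and Pdlim2, whose product promotes the breakdown of p65, by -0.84. Irak2, Tnip3 and Zc3h12a did not reach the floor in MSC without bFGF, which makes the size of their differences dependent on background.

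Among 10 measured receptors that feed the pathway 8 lay above the floor in this pair, and the median over all 10 was 0.02. Of the 8, 1 was called higher and 0 lower, beside 4.09% and 0.467% of all genes above the floor. The gene called was Tlr2, a receptor for bacterial lipoproteins, at 7.96 in MSC with bFGF against 6.73 in MSC without bFGF. Tlr4, the endotoxin receptor, was at 8.97 and 9.08 in the same order. Of 10 ligands 5 lay above the floor in this pair, and the median over all 10 was 0.72. Of the 5, 3 were called higher and 1 lower, beside the same shares of all genes. The 3 were Tnf (2.44), Il1b (2.56) and Tnfsf13b, a B cell survival factor (1.71), while the alarmin Il33 differed by -2.38. In MSC without bFGF Il1b (5.27) and Tnfsf13b (5.66) were under the floor, so that their sizes depend on background as well. Of 26 known target genes 18 lay above the floor in this pair, of which 7 were called higher and 0 lower, beside the 4.09% and 0.467% of all genes above the floor. Over all 26, including those under the floor, 23 were above 0 and the median was 0.40. The chemokine genes Cxcl2 (4.55), Ccl3 (2.73), Ccl4 (2.70) and Ccl2 (2.18) had the largest differences in this list, although Cxcl2, at 5.94, was under the floor in MSC without bFGF and the size of its difference depends on background. Some of these targets are chemokines that macrophages make in quantity.

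The family of Ptx3 and the partners of its protein in the matrix are given beside it. All 5 measured pentraxin genes, which included Crp, Nptx1 and Nptx2, lay under the floor in both MSC arrays. Of 10 genes of the hyaluronan matrix and of FGF2, 4 lay above the floor in this pair and 0 of these were called, and the median over all 10 was -0.07. Vcan, a large proteoglycan that binds hyaluronan, differed by -0.83, Itih2, a heavy chain of the inter-alpha inhibitor, by -0.70 and Fgf2 by -0.46. Has2, a hyaluronan synthase, differed by 1.16, at 5.86 in MSC with bFGF against 4.70 in MSC without bFGF, but did not reach the floor in either MSC culture and so was not counted.

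**Figure D3:**
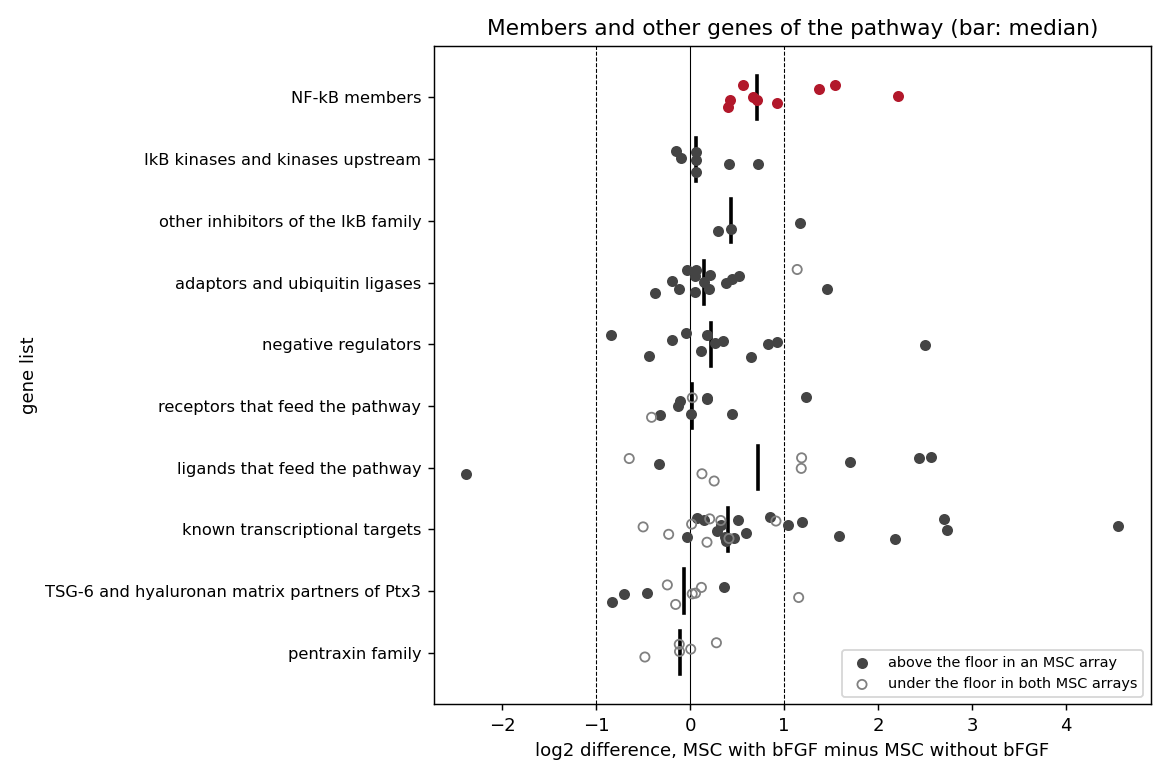
Log2 difference of MSC with bFGF minus MSC without bFGF for the members (red) and for the genes of 9 lists of the pathway (1 row a list, 1 point a gene, bar at the median; open points lie under the floor in both MSC arrays; dashed lines mark 2-fold). The medians run from -0.11 for pentraxins to 0.72 for ligands, with 0.71 for the members. They include genes under the floor. In this pair 5 of 10 ligands and 0 of 5 pentraxins lay above it, against all 9 members.

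Set against osteoblasts, the members differed between the 2 MSC arrays in how far they lay from that control. Both comparisons use the same osteoblast array. In MSC with bFGF 0 of 9 members were called higher and 0 lower than in osteoblasts, against 7.5% and 9.71% of 10798 genes. The differences ran from -0.91 for Nfkbie to 0.43 for Relb, with a median of -0.12 against 0.09 over all genes, and 4 members were above 0 against 55.3% of genes. Nfkb2, Rela, Relb and Nfkbiz were the 4 above 0.

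In MSC without bFGF 4 of 9 members were called lower than in osteoblasts and 0 higher, against 13.3% and 8.17% of 10973 genes. These were Ptx3 (-2.60, 6.07-fold), Rel (-2.15, 4.44-fold), Nfkbia (-1.77, 3.41-fold) and Nfkbie (-1.33, 2.52-fold). Nfkbiz, at -0.9996, lay at the threshold and passed it once differences were centred on the median of all genes. Only Relb was above 0, by 0.02, against 55.5% of genes, and it was below 0 after centring (-0.07) or after a loess curve was removed (-0.06). The median was -0.9996 over the members and 0.09 over all genes.

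Set against embryonic stem cells, 4 of 9 members were called higher and 0 lower in MSC with bFGF, against 11.3% and 10.6% of 10932 genes. They were Ptx3 (2.77, 6.80-fold), Rel (1.21), Rela (1.06) and Tnfaip3 (1.04). Nfkbie, Nfkbiz and Nfkbia were just short of 2-fold at 0.95, 0.93 and 0.90. All 9 were above 0, against 57.2% of genes, with a median of 0.95 against 0.12. These calls near the threshold moved with the scaling. Rela and Tnfaip3 were under 2-fold after centring on the median of all genes (0.95 and 0.92), after a loess curve was removed (0.87 and 0.91) and after repeated quantile normalization (0.94 and 0.997). Nfkbie, by contrast, passed 2-fold after loess (1.02) and quantile normalization (1.00).

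In MSC without bFGF 0 of 9 members were called higher and 0 lower than in embryonic stem cells, against 10.4% and 11.8% of 10977 genes. The differences ran from -0.44 for Nfkbiz to 0.56 for Ptx3, with a median of -0.02 against 0.10 over all genes, and 4 members were above 0 against 55.8% of genes. Both MSC comparisons use the same embryonic stem cell array, and the difference between the MSC arrays is that given above.

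Osteoblasts had 5 of 9 members called higher than embryonic stem cells and 0 lower, against 12.3% and 8.83% of 10927 genes. The 5 were Ptx3 (3.16, 8.94-fold), Nfkbie (1.85), Rel (1.81), Nfkbia (1.74) and Tnfaip3 (1.16). In all 8 members were above 0, against 51.5% of genes, with a median of 1.16 against 0.03. Relb, at -0.04, was the exception, and Nfkb2 differed by 0.08. Nfkbie was under the floor in embryonic stem cells, so its value depends on background.

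**Figure D4:**
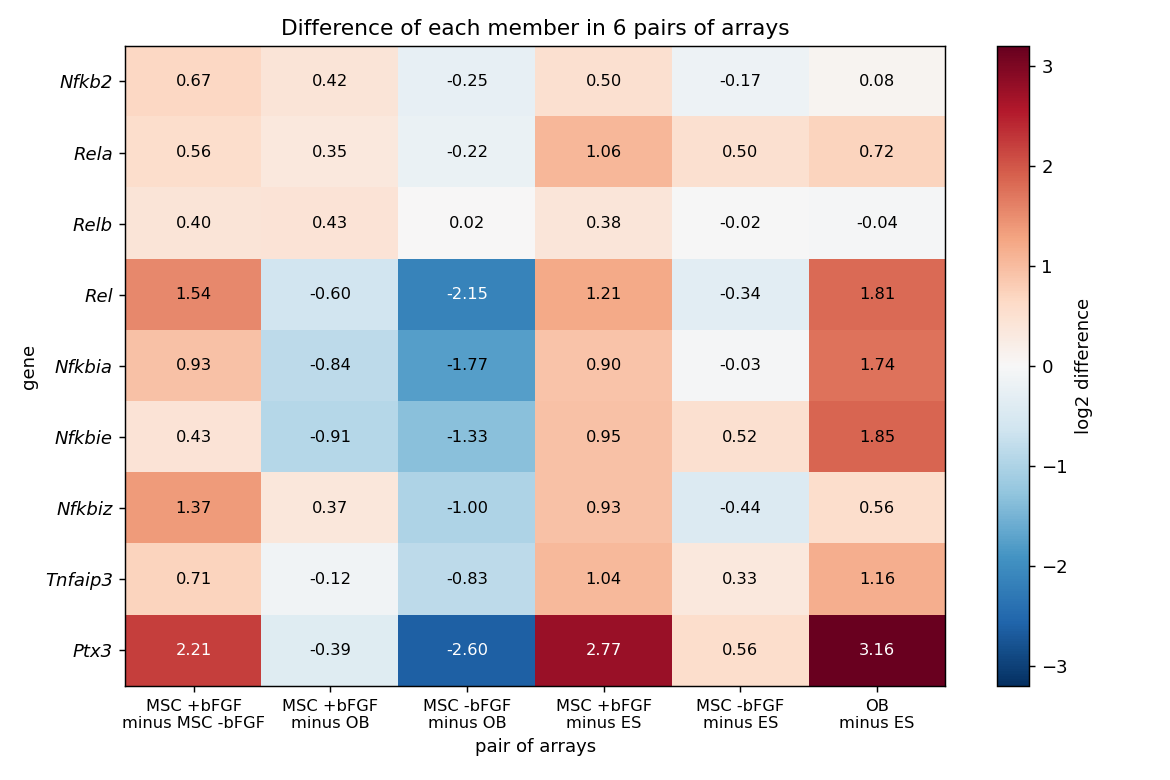
Log2 difference of each member (rows) in each of the 6 pairs of arrays (columns, first-named array minus the second; OB, osteoblasts; ES, embryonic stem cells), with the value in each cell and colour from blue (below 0) to red (above 0). Ptx3 spans -2.60 to 3.16, whereas Relb stays between -0.04 and 0.43.

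Over the 4 arrays the members had different orders of level. Rel and Nfkbia had the order osteoblasts, MSC with bFGF, embryonic stem cells, MSC without bFGF, from high to low. Nfkbie, Tnfaip3 and Ptx3 had the order osteoblasts, MSC with bFGF, MSC without bFGF, embryonic stem cells. Nfkb2, Rela, Relb and Nfkbiz were highest in MSC with bFGF. Several neighbours in these orders were close, such as Nfkbia at 8.77 in MSC without bFGF and 8.80 in embryonic stem cells, or Tnfaip3 at 8.06 in MSC with bFGF and 8.18 in osteoblasts. There is no spread between cultures to judge them by.

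The genes with the most similar course over the 4 arrays were sought among 11214 others for the 7 members with a range of at least 1, by the Euclidean distance between levels centred on each gene's mean. With 4 arrays such likeness is a description. Ptx3 was nearest to Il10ra, the interleukin 10 receptor chain (distance 0.116), Arhgap25 and Itgb2, the leukocyte integrin chain CD18. Rel was nearest to Emilin2 (0.144), the interferon regulatory factor Irf7 and Myo1g, and Nfkbia to Cd300a (0.0943), Ehd4 and Prkcb. Nfkbie was nearest to Rb1 (0.147), Cd300lb and the lysosomal protease Ctsb, and Tnfaip3 to Mvb12b (0.113), Hdac9 and Car13. Rela was nearest to B3gnt2 (0.0448), the survival gene Bcl2l1, which is also in the target list, and Zbtb16. Nfkbiz had no close neighbour by comparison, with Gch1 at 0.257, Spn and Elmo1.

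Macrophage markers also differed between the arrays, in part in the same order as the members. In MSC with bFGF minus MSC without bFGF, 15 of 18 macrophage markers were called higher and 0 lower, with a median difference of 2.60 against 0.71 for the members. Over all genes above the floor 4.09% were called higher and 0.467% lower in this pair. Ptprc, the pan-leukocyte phosphatase CD45, stood at 9.40 in MSC with bFGF against 6.08 in MSC without bFGF, and Csf1r, the receptor of the macrophage growth factor, at 10.56 against 7.31. Mrc1, the mannose receptor, was at 4.92 against 4.63, under the floor on both arrays. Array levels have no true zero, and 8 of the 18 markers lay under the floor in MSC without bFGF.

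Against osteoblasts the macrophage list had medians of -1.26 in MSC with bFGF and -3.80 in MSC without bFGF. In the same order 12 and 18 of 18 markers were called lower, beside 9.71% and 13.3% of all genes above the floor. The member medians in these comparisons were -0.12 and -0.9996. With each gene centred on its own mean over the arrays, the members had medians of 0.41, -0.31, 0.53 and -0.63 in MSC with bFGF, MSC without bFGF, osteoblasts and embryonic stem cells, and the macrophage markers had 0.77, -1.73, 2.10 and -1.16. All 9 members lay below their own mean in MSC without bFGF and in embryonic stem cells and above it in MSC with bFGF. In osteoblasts all 18 macrophage markers lay above their own mean, by at least 1.30, whereas Relb (-0.12) and Nfkb2 (-0.02) lay below theirs. Nfkb2, Rela, Relb and Nfkbiz were highest in MSC with bFGF, where 12 of the 18 markers were called lower than in osteoblasts. Stromal markers had a median difference of -0.06 with against without bFGF. Of 9 stromal markers 2 were called higher and 1 lower, beside 4.09% and 0.467% of all genes above the floor. The part of macrophage content in the differences of the members was not tested.

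**Figure D5:**
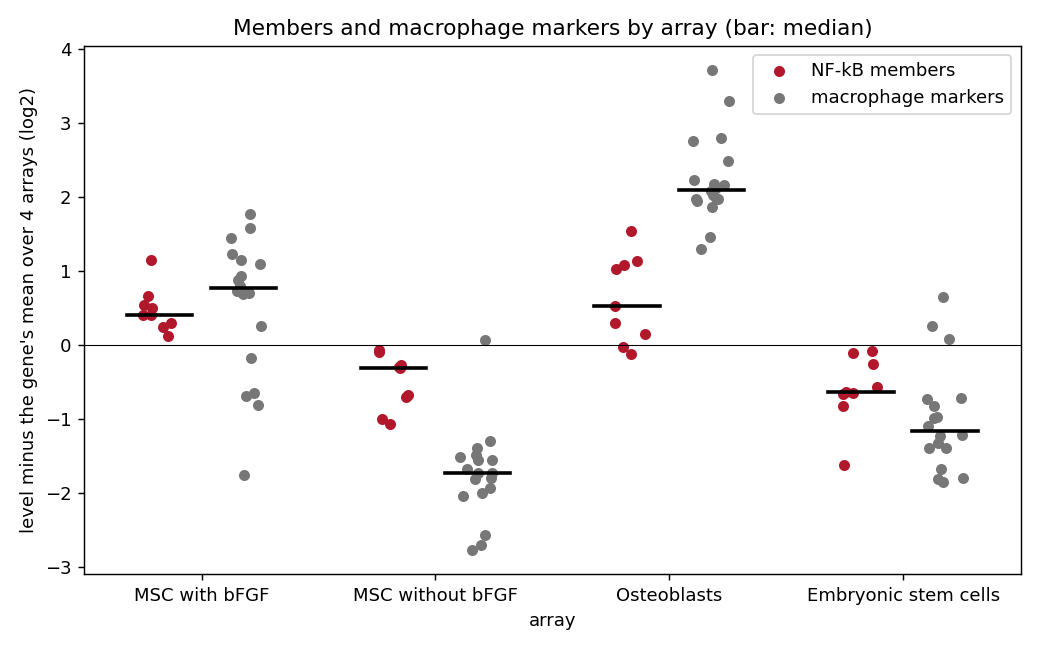
Level of each gene minus its own mean over the 4 arrays (log2) for the 9 members (red) and the 18 macrophage markers (grey) on each array, with bars at the medians; each point is 1 gene. Both sets lie mostly above 0 in MSC with bFGF and osteoblasts and mostly below 0 in MSC without bFGF and embryonic stem cells, and the macrophage markers spread further, with medians from -1.73 to 2.10.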

How the data were processed

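Gene expression was measured in cultured mouse cells on 4 whole-transcript arrays, 1 per group. Per the submitters' processing notes, the authors used Affymetrix Expression Console and RMA, which corrects background, makes the arrays' distributions alike and summarises probes. That the deposited levels are log2 values is read from their range of 1.40 to 14.28. Versions and the genome build: not given in the sources used here. RMA hides any general shift in RNA per cell and compresses differences near background. Of 35556 probe sets 21789 had 1 gene symbol in the platform annotation, 1621 several and 12146 none. Symbols were checked by Entrez identifier (21698 matched, 0 changed). Each of 19938 genes took its probe set with the highest mean. Differences, the floor and 2-fold calls are those given in the report, and no test was possible with 1 array per group.

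The members and lists were chosen with earlier results of these data known. All members were named. From each of 9 pathway lists the rule took up to 4 genes with the largest differences between the MSC arrays and up to 2 from other pairs, and the text gives those that illustrate a list. Markers Alpl, Sp7, Ibsp, Dmp1, Phex, Col1a1, Bglap, Spp1, Ptprc, Csf1r and Mrc1 come from the marker lists. kB motifs were searched on both strands of RefSeq promoter windows of 300 bases. The calling and motif procedures were tested on simulated data. The tools were Python 3.11.15 with statsmodels 0.14.6, pandas 2.3.3, numpy 2.4.6 and matplotlib 3.10.9. Alternatives were averaging the probe sets of a gene, leaving out the floor or setting it at the 75th percentile, 1.5-fold and 4-fold thresholds, centring, a loess curve (span 0.3) and repeated quantile normalization. The number of arrays limits the precision.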

Additional observations from a re-analysis of the deposited data

How the results depend on the processing

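No paired analysis was possible because each group had 1 array. For MSC with bFGF minus MSC without bFGF, 6 members were called at 1.5-fold and 1 at 4-fold, against 3 at 2-fold, all higher. Of all genes above the floor 7.45% were called higher at 1.5-fold and 1.53% at 4-fold. For MSC with bFGF minus osteoblasts 3 were called at 1.5-fold, all lower, against 0 at 2-fold. Of all genes above the floor 18.4% were called lower there at 1.5-fold. For MSC without bFGF minus osteoblasts 2 were called lower at 4-fold against 4, beside 5.36% of all genes above the floor. The 4 calls of MSC with bFGF against embryonic stem cells became 7 at 1.5-fold, all higher, beside 24.1% of all genes. They became 1 at 4-fold (2.7% of all genes) and 2 with a floor at the 75th percentile (13.1%). With centring on the median of all genes, which stood at 0.12, they became 2 (9.2%). They became 3 with loess (9.49%) and 3 with repeated quantile normalization (10.1%), which are Ptx3, Rel and Nfkbie in both. These shares are of the genes above the floor in each setting that were called higher. For osteoblasts minus embryonic stem cells 1 was called higher at 4-fold against 5, beside 3.39% of all genes above the floor. The stricter thresholds and floor lose calls by construction. Other counts of called members stayed within 1.5 times the count given. In all 216 differences of single members were recomputed under the mean of probe sets, centring, loess and repeated quantile normalization. Of these 0 moved by as much as the SD between probe sets of a gene, and the largest shift was 0.196. That 0 called differences changed sign follows from this, since a call needs a difference of at least 1. Among differences not called, Relb in MSC without bFGF minus embryonic stem cells changed sign, from -0.0215 to 0.0075 with repeated quantile normalization. Since each member had 1 probe set, the mean of probe sets could not alter its level. Over all genes, the pair of MSC arrays gave 429 higher and 49 lower, 521 and 189 with no floor, 172 and 17 with the floor at the 75th percentile, 781 and 350 at 1.5-fold, and 160 and 1 at 4-fold.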
